A study of Ovis aries with 20 samples.

Results

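The genes described here are 10 members of the BCL2 family that act in follicle atresia: BCL2, BCL2L1, MCL1, BAX, BAK1, BOK, BCL2L11, BBC3, BID and BAD. They were chosen by gene name, and each was found as 1 of the 28524 gene rows of the table of normalized read counts. The libraries were made from RNA of granulosa cells, the inner layer of the follicle, and theca cells, the layer around it, in adult sheep of 21 months of age. The prenatal T animals (sheep 209, 210, 230, 276 and 315) came from ewes given 100 mg testosterone propionate (1.2 mg/kg) into the muscle 2 times a week from day 30 to day 90 of gestation. The controls (sheep 139, 224, 244, 246 and 268) came from ewes given vehicle over the same days. All animals of both groups received 10 mg prostaglandin F2α 2 times, 11 days apart, and ovaries were taken 18 hours after the last injection. Several antral follicles of each animal were microdissected from sections and pooled by layer, and the labels give no health class for these follicles. Granulosa libraries of 4 controls and 5 prenatal T sheep were used, and theca libraries of 5 sheep in each group. Granulosa cells of control sheep 139 were not analysed here.

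Most ovarian follicles are lost by atresia, in which the granulosa cells die by apoptosis. BCL2 family proteins set that step at the mitochondrion: BCL2, BCL2L1 (BCL-XL) and MCL1 keep the outer membrane closed, BAX and BAK1 form the pores that open it, and BOK is a related effector. The BH3-only proteins BCL2L11 (BIM), BBC3 (PUMA), BID and BAD carry stress signals to the other members, and several of them are controlled by cleavage, phosphorylation or degradation, which RNA counts do not show.

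Each library held 12.7 to 26.0 M reads. The values below are normalized counts, that is, gene counts after division by the size factor of their library. All 10 members had a normalized count of at least 10 in every library, with between 29 reads (BBC3) and 12483 reads (MCL1) behind a value. Both libraries of prenatal T sheep 209 stood apart from the rest. The granulosa genes AMH, FSHR and CYP19 and the theca gene CYP17A1 were at 0 in both, while in the other libraries of the matching layer AMH had 2629 to 7774 and CYP17A1 had 585 to 2523. The summed count of 9 granulosa marker genes was 23826 in the granulosa library of sheep 209 and 48676 to 181199 in the other granulosa libraries. SERPINE2 alone gave 23198 of that 23826, within the 15173 to 53977 of the others, and every other marker of the list lay below the others. In this library of sheep 209, INHA had 8.05 against 7238 to 38080, and FOXL2 had 36.8 against 3804 to 9577. The sum of 6 epithelial markers was 77830 in its granulosa library and 19530 in its theca library, against 128 to 883 in all others, and that of 6 immune cell markers was 12847 and 15326, against 168 to 2020. The main results for the members are therefore given with and without this animal, and most pathway genes are given with all animals. For sheep 209, granulosa cells and theca cells below mean the layer named by the labels. The genes at 0 do not bear out these names, but some marker sums differed between its layers. The 10 theca markers summed to 388882 in its theca and 27737 in its granulosa library, against 602053 to 888245 in other theca libraries. The 6 smooth muscle and pericyte markers summed to 265181 and 10896 in the same order, and the 9 granulosa markers to 20491 and 23826. In its theca library DCN, LUM and PDGFRA lay within the range of other theca libraries, and the other theca markers below.

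In sheep 209, 7 of the 10 members lay above all other libraries of the layer in granulosa cells, and 7 did so in theca cells. So did 31.5% and 30.0% of the 14707 and 15304 genes with a median of at least 10 in those other libraries. Among the 10 members, MCL1 stood out by the size of its value, and shifts of that size were not counted over all genes. Its normalized count was 14364 in granulosa cells of sheep 209 and 1900.3 to 3994 in the other 8 granulosa libraries. In theca cells it was 14709 against 1977 to 3403 in the other 9 libraries, so that sheep 209 stood at 5.86 times and 6.18 times the median of the others. BAK1 was at 934 against 258 to 482 in granulosa cells and at 569 against 286 to 424 in theca cells. BID lay below all other libraries in both layers, at 574 against 635 to 848 and at 487 against 618 to 844. Counting both sides, 66.2% of the genes with such a median lay outside the range of the other granulosa libraries. In theca cells 61.2% did so, and a place outside the range was thus common in this animal. The part of its other cell types in these values was not tested.

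**Figure D1:**
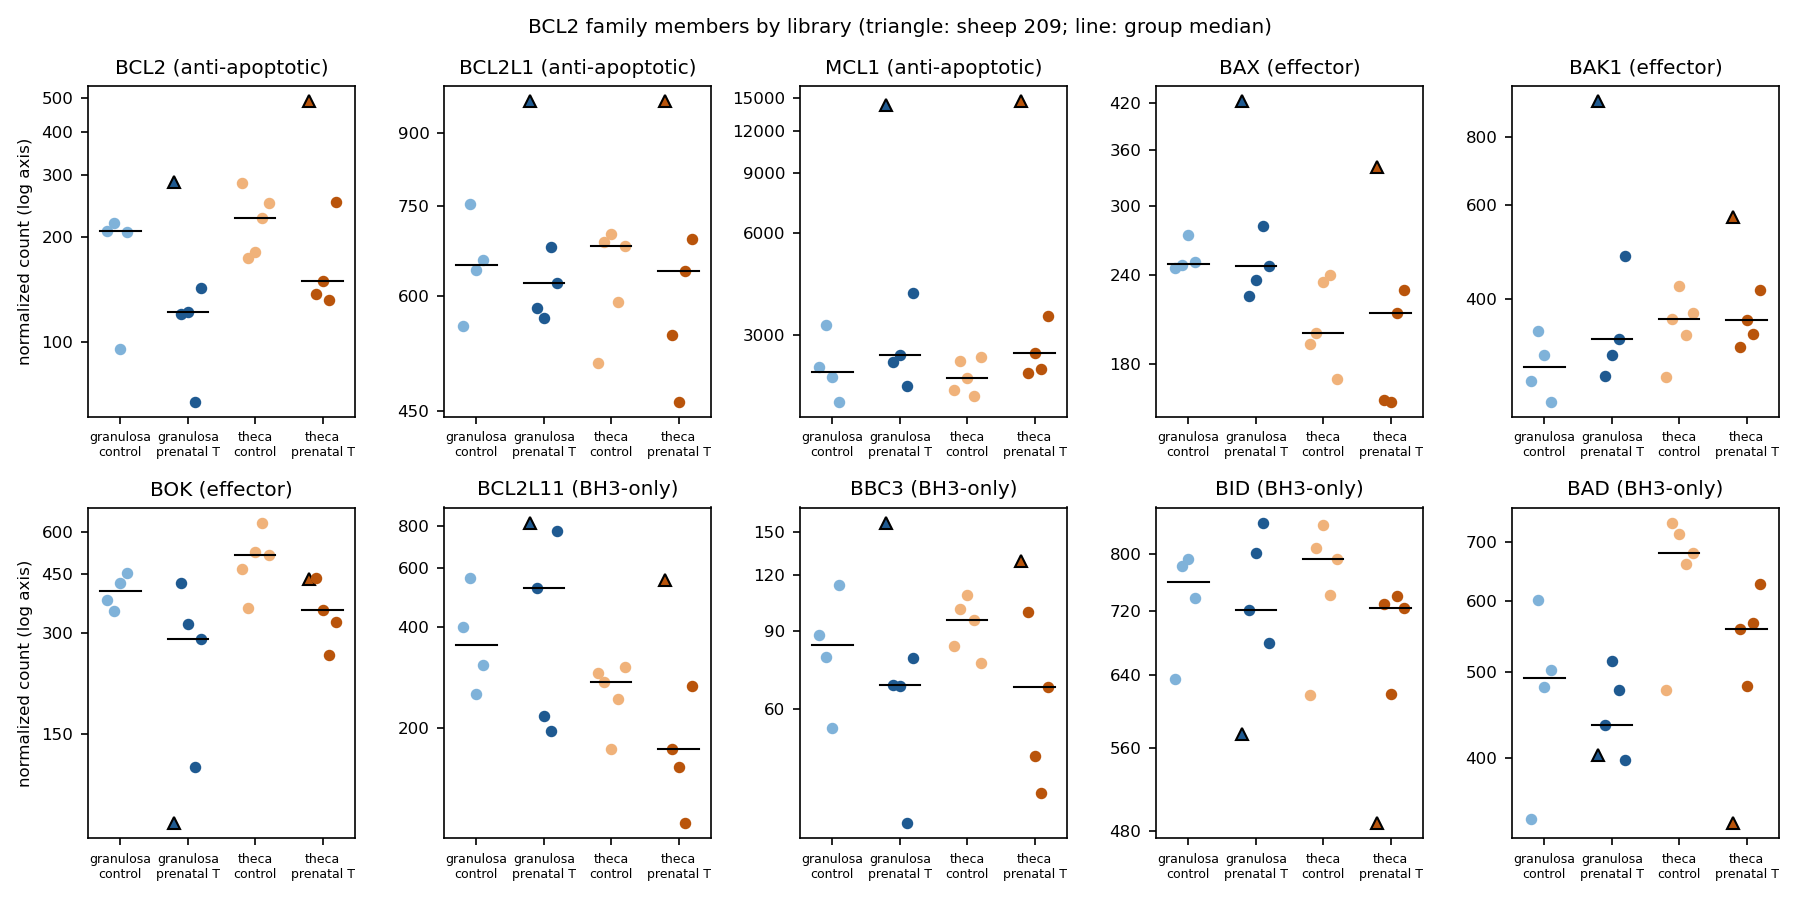
Normalized count (log axis, own scale for each gene) of each of the 10 members by group, with 1 point per library, triangles for sheep 209 and lines for group medians. MCL1 sits between 1900.3 and 3994 in all libraries except both of sheep 209, and BCL2L11 is higher in granulosa than in theca cells of the same animals.

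The first comparison asked which members differ between granulosa and theca cells of the same animal. It used the 9 animals with both layers, with limma on log2 of the normalized count plus 1 and the animal as a block. BCL2L11 and BAX were higher in granulosa cells, BCL2 and BAD were higher in theca cells, and the other 6 members did not pass the adjusted threshold of 0.05. Differences between layers were the rule in these data: of 16169 genes tested 56.7% passed, 28.8% higher and 27.8% lower in granulosa cells, so 4 of 10 members is a share below that of all genes. Without sheep 209, 5 of 10 members passed, among 62.8% of 15923 genes (31.9% higher and 30.9% lower). Without the block for the animal, 0 of 10 members and 5148 genes passed. The median difference over the 10 members was 0.0096 on the log2 scale, and over all genes tested it was 0.028. In such bulk samples, fewer cells of a type and less RNA per cell cannot be told apart.

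By sums over lists, the dissected layers carried their own markers, but some single markers overlapped between layers in the animals other than sheep 209. FOXL2 had 3804 to 9577 in granulosa and 3058 to 6435 in theca libraries, and INSL3 had 595 to 3627 and 3546 to 18648. Others, such as AMH and CYP17A1, did not overlap. Leaving out sheep 209, the summed count of 10 theca markers was 602053 to 888245 in theca libraries and 19994 to 83161 in granulosa libraries. The 9 granulosa markers summed to 16192 to 35048 in theca libraries, below the lowest of these granulosa libraries. Of other cell types, 6 of 6 endothelial markers were found, with a sum of 1429 to 3814 in granulosa libraries and 10657 to 18478 in theca libraries. Of smooth muscle and pericyte markers 6 of 6 were found as well, with sums of 17469 to 41845 and 100379 to 211239. The part of these cells in the differences between layers was not tested.

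BCL2L11, which encodes BIM, a BH3-only protein that binds all anti-apoptotic members, had the largest difference between layers among the 10 members. In granulosa cells its normalized count was 399, 560.1, 254 and 308 in control sheep 244, 246, 268 and 224, and 818, 521, 217, 196 and 774 in prenatal T sheep 209, 210, 230, 276 and 315. In theca cells it was 305, 292, 274, 174 and 245 in control sheep 139, 244, 246, 268 and 224, and 550.4, 174, 154, 104 and 267 in the prenatal T animals in the same order. Granulosa cells had the higher value in 9 of 9 animals, although the ranges of the layers overlapped across animals. The difference was 0.83 ± 0.14 (SE) on the log2 scale, 1.77-fold (adjusted p = 0.000489 by limma), and 0.86 ± 0.15 without sheep 209 (adjusted p = 0.000314). Sheep 209 and sheep 315 had the highest values in granulosa cells, and sheep 276 the lowest in both layers. ACOXL, a gene that overlaps BCL2L11 in RefSeq, had at most 19.0 normalized counts.

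BAX, the pore-forming effector, varied least among the members in control granulosa cells, with a coefficient of variation of 5.01%. In granulosa cells the controls 244, 246, 268 and 224 had 246, 248, 273 and 250.1 normalized counts, and the prenatal T sheep 209, 210, 230, 276 and 315 had 422, 224, 236, 282 and 247. In theca cells the controls 139, 244, 246, 268 and 224 had 171, 192, 199, 235 and 240.1, and the prenatal T animals in the same order had 340.4, 160.1, 159, 212 and 229. Granulosa cells were higher in 9 of 9 animals, and all granulosa controls lay above all theca controls. The difference was 0.31 ± 0.077 (SE) on the log2 scale, 1.24-fold (adjusted p = 0.00478 by limma), and 0.31 ± 0.085 without sheep 209 (adjusted p = 0.00633). TULP2, which overlaps BAX in RefSeq, had 38.0 to 215 normalized counts, and the sources used here do not say whether reads were counted by strand, so reads of the pair may not be separated.

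BCL2, the founding anti-apoptotic member, was lower in granulosa cells. In granulosa cells the controls 244, 246, 268 and 224 had 208, 219.7, 95.7 and 207 normalized counts, and the prenatal T sheep 209, 210, 230, 276 and 315 had 287, 121, 122, 67.6 and 143. In theca cells the controls 139, 244, 246, 268 and 224 had 251, 285, 174, 181 and 227, and the prenatal T animals in the same order had 489.7, 138, 149.7, 132 and 253. Theca cells were higher in 8 of 9 animals, with control sheep 246 as the exception. The difference, granulosa minus theca, was -0.46 ± 0.14 (SE) on the log2 scale (adjusted p = 0.0149 by limma), and -0.43 ± 0.15 without sheep 209 (adjusted p = 0.0239). Control sheep 268 and prenatal T sheep 276 had the lowest granulosa values and 2 of the 3 largest differences between layers, at -0.91 and -0.96.

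BAD, a BH3-only protein that survival kinases hold inactive by phosphorylation, was lower in granulosa cells as well. The granulosa controls 244, 246, 268 and 224 had 342, 603, 481 and 503 normalized counts, and the prenatal T sheep 209, 210, 230, 276 and 315 had 403, 436, 514, 477 and 398. The theca controls 139, 244, 246, 268 and 224 had 680.1, 477, 736, 715 and 660.4, and the prenatal T animals in the same order had 338, 559, 481, 567 and 627. Theca cells were higher in 7 of 9 animals, the exceptions being prenatal T sheep 209 and 230. The difference was -0.29 ± 0.095 (SE) on the log2 scale (adjusted p = 0.0207 by limma) and -0.36 ± 0.080 without sheep 209 (adjusted p = 0.00182). The call was narrow: without sheep 244, 268 or 315 the adjusted p was 0.0502, 0.0530 and 0.0511. GPR137 overlaps BAD in RefSeq and had 150.4 to 319 normalized counts, so the same limit of strand holds as for BAX.

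BOK, the effector related to BAX and BAK1, lay at the edge of the threshold. Its granulosa values were 375, 349, 422 and 453 in control sheep 244, 246, 268 and 224, and 81.7, 423, 318, 120.3 and 288 in prenatal T sheep 209, 210, 230, 276 and 315. Its theca values were 511, 465, 355, 522 and 639 in control sheep 139, 244, 246, 268 and 224, and 435, 436, 351, 258 and 323 in the prenatal T animals in the same order. Granulosa cells had the lower value in 9 of 9 animals, and the lowest granulosa values were those of sheep 209 and 276. The difference was -0.55 ± 0.22 (SE) on the log2 scale (adjusted p = 0.0508 by limma). Without sheep 209, in which it was -2.40, the difference was smaller with a smaller error, -0.32 ± 0.11, and passed the threshold (adjusted p = 0.0237). It also passed without sheep 246, with a pseudocount of 5 and by DESeq2 (adjusted p = 0.0493, 0.0488 and 0.0354).

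Of the other members, the anti-apoptotic BCL2L1 and MCL1 differed between layers by 0.07 ± 0.059 and 0.07 ± 0.060 (SE) on the log2 scale. Their 95% intervals were -0.061 to 0.20 and -0.060 to 0.20. The effector BAK1 differed by -0.05 ± 0.11, and by -0.14 ± 0.082 without sheep 209, the only animal besides sheep 315 with more BAK1 in granulosa than in theca cells. Of the BH3-only members, BBC3, which p53 induces, differed by -0.08 ± 0.17, and BID, which caspase 8 cleaves, by 0.07 ± 0.062. The 95% intervals of all 5 included 0.

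**Figure D2:**
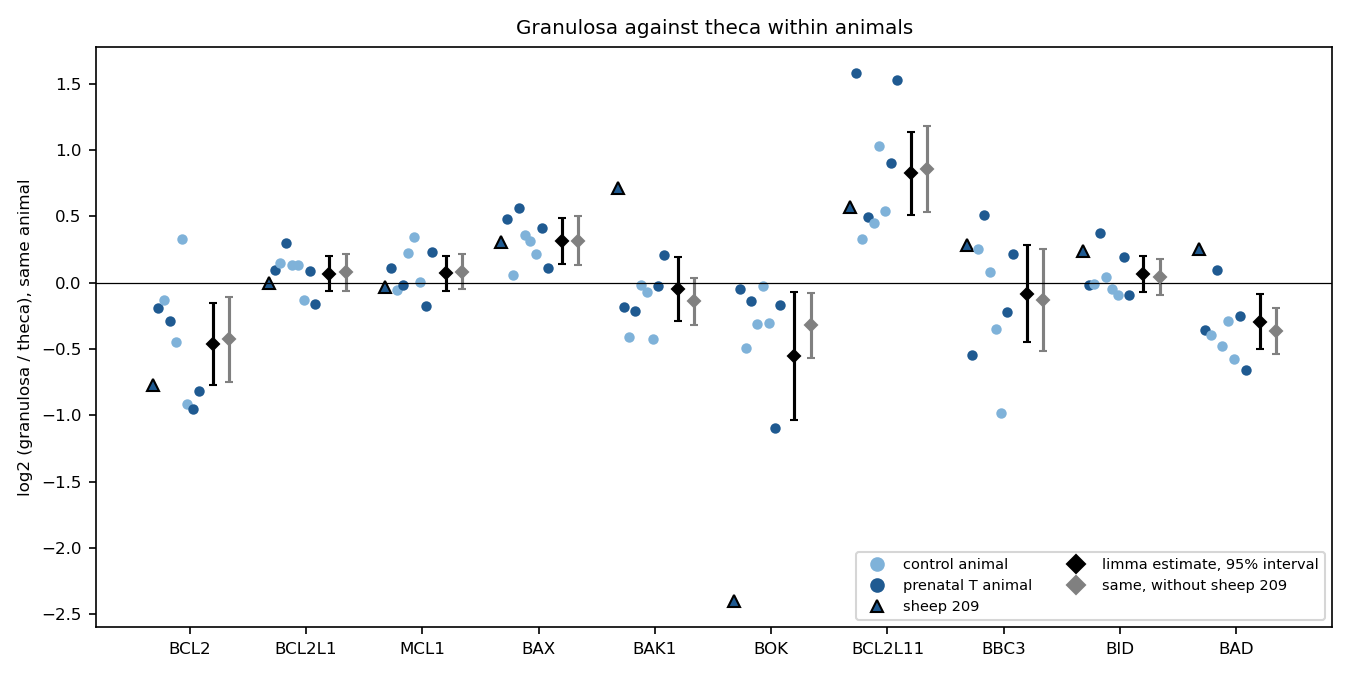
Log2 ratio of granulosa to theca cells in each of the 9 animals (points; triangle, sheep 209) and the limma difference with its 95% interval, with all animals (black) and without sheep 209 (grey). BCL2L11 and BAX are above 0 in 9 of 9 animals and BOK is below 0 in 9 of 9, and the sheep 209 point of BOK lies at -2.40.

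Ratios of members within a library were also described, with no test. Their size means nothing by itself, since transcript lengths were not used, but they can be set side by side across libraries. The ratio of BAX to BCL2 was 1.13 to 2.86 in control and 1.47 to 4.17 in prenatal T granulosa cells, and 0.673 to 1.30 in control and 0.695 to 1.605 in prenatal T theca cells. It was higher in granulosa cells in 8 of 9 animals, and the highest granulosa ratios were those of sheep 276 and 268, the animals with least BCL2 in that layer. The ratio of BCL2L11 to MCL1 was higher in granulosa cells in 9 of 9 animals. In theca cells it was 0.0778 to 0.142 in controls and 0.0374 to 0.0786 in prenatal T animals, with sheep 209 lowest. In granulosa cells it was 0.113 to 0.175 and 0.0570 to 0.209, and the groups overlapped there as well.

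**Figure D3:**
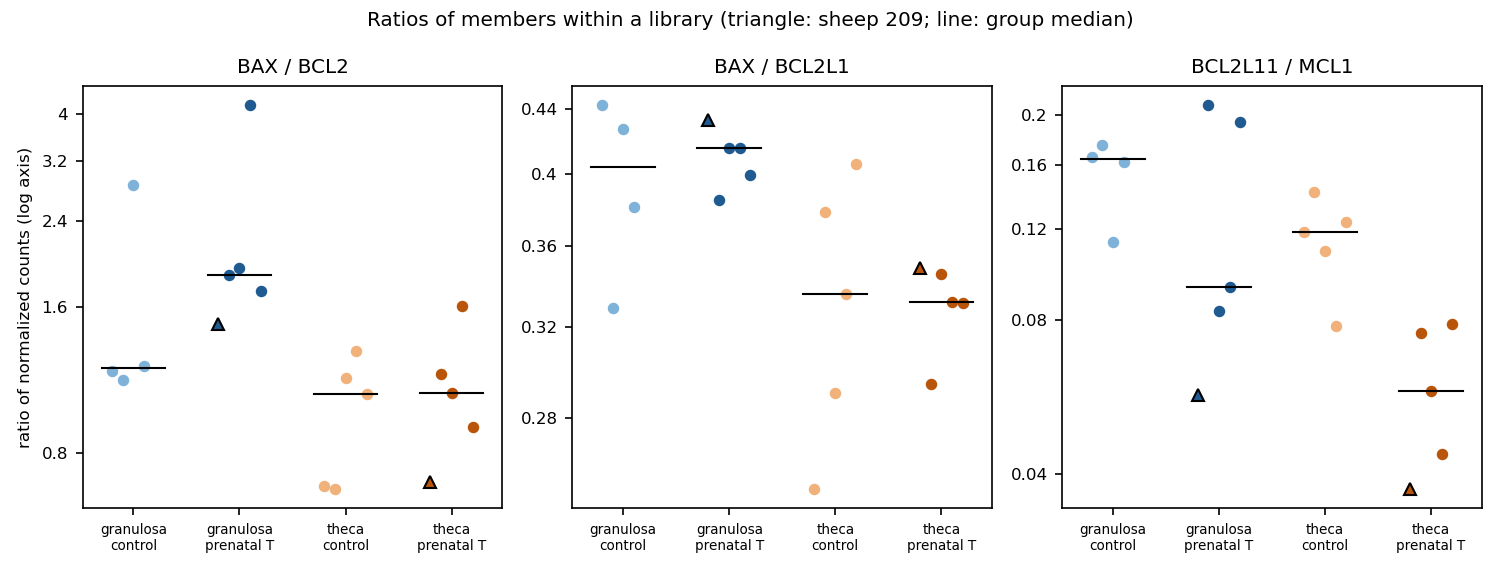
Ratios of normalized counts within each library (log axis) for BAX to BCL2, BAX to BCL2L1 and BCL2L11 to MCL1 by group, with triangles for sheep 209 and lines for group medians. The BCL2L11 to MCL1 ratio in prenatal T theca cells spans 0.0374 to 0.0786, and that in control theca cells 0.0778 to 0.142.

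The next comparisons asked whether prenatal testosterone altered the members in adult granulosa or theca cells. By limma, 0 of 10 members passed in either layer, as did 0% of 14724 genes in granulosa cells and 0% of 15492 in theca cells, with 622 and 1192 genes at an unadjusted p under 0.05. Control and prenatal T values overlapped for 10 of 10 members in both layers. Overlap was the rule among all genes tested: the groups did not overlap for 2.41% of them in granulosa cells and 2.26% in theca cells. By edgeR 0 genes passed in both layers, and by DESeq2 16 passed in granulosa and 7 in theca cells, 0 members among them. At an unadjusted p under 0.05 there were 0 members in granulosa cells and 1, BOK, in theca cells.

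With all libraries, BOK had the lowest p of the members in both layers. In theca cells, with the values above, 3 of 5 prenatal T animals lay below the lowest control, at 351, 258 and 323 against 355, and the other two at 435 and 436 lay within the control range. The difference, prenatal T minus control, was -0.47 ± 0.20 (SE) on the log2 scale (unadjusted p = 0.0364, adjusted p = 0.644 by limma). Without sheep 209 it was -0.54 ± 0.19 (unadjusted p = 0.0162, adjusted p = 0.371). In granulosa cells 4 of 5 prenatal T animals lay below all controls, with sheep 210 as the exception, and the difference was -0.94 ± 0.47 (adjusted p = 0.875). Without sheep 209 it was -0.60 ± 0.34 (adjusted p = 0.738), and BCL2 then had the lowest p of the members in granulosa cells, at an unadjusted p of 0.0794 by limma against 0.11 for BOK. Markers of other cells of the follicle wall are given beside this result with no test. Leaving out sheep 209, the 10 theca markers summed to 33185 to 83161 in control and 19994 to 40581 in prenatal T granulosa libraries, and the 6 smooth muscle and pericyte markers to 26537 to 41845 and 17469 to 25850. The 6 endothelial markers summed to 1921 to 3814 and 1429 to 3684. In theca libraries the smooth muscle and pericyte markers summed to 100379 to 211239 in controls and 140299 to 163939 in prenatal T animals. The 6 luteal cell markers summed to 1751 to 3109 in control and 2132 to 13127 in prenatal T granulosa libraries. In theca libraries they summed to 4382 to 5840 and 5429 to 11820. The 6 immune cell markers summed to 584 to 1105 and 168 to 1818 in granulosa libraries. Of these sums, only that of smooth muscle and pericyte markers in granulosa libraries did not overlap between the groups. Among all genes tested without sheep 209, 3.85% did not overlap in granulosa cells. The part of these other cells in the BOK difference was not tested.

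MCL1 showed how far sheep 209 set the estimates. In granulosa cells the controls 244, 246, 268 and 224 had 2409, 3197, 2244 and 1900.3 normalized counts, and the prenatal T sheep 210, 230, 276 and 315 had 2490.3, 2615, 2112 and 3994. The difference was 0.67 ± 0.52 (SE) on the log2 scale with sheep 209 and 0.19 ± 0.22 without it. In theca cells the controls 139, 244, 246, 268 and 224 had 2576, 2059, 2516, 2234 and 1977, and the prenatal T animals other than sheep 209 had 2312, 2644, 2380.5 and 3403. There the difference was 0.73 ± 0.45 with sheep 209 and 0.23 ± 0.13 without it. Besides sheep 209, prenatal T sheep 315 lay above all controls in both layers and sheep 230 did so in theca cells.

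The remaining anti-apoptotic members and effectors did not pass in either layer. BCL2 was at -0.39 ± 0.42 (SE) in granulosa and -0.12 ± 0.35 in theca cells on the log2 scale, and without sheep 209 at -0.66 ± 0.34 and -0.44 ± 0.23. In theca cells 3 of 5 prenatal T animals had less BCL2 than every control and sheep 209 had more than every control. BCL2L1 was at 0.05 ± 0.18 and 0.03 ± 0.19, with 95% intervals of -0.36 to 0.46 and -0.40 to 0.46. BAX was at 0.11 ± 0.21 and 0.04 ± 0.22, and BAK1 at 0.50 ± 0.33 and 0.15 ± 0.18. Without sheep 209, BCL2L1 was at -0.09 and -0.12, BAX at -0.04 and -0.13, and BAK1 at 0.22 and 0.02, so the signs of BCL2L1 and BAX turned without that animal. They also turned when another animal was left out: BCL2L1 was at -0.024 and -0.048 without control sheep 244, and BAX was at -0.028 in theca cells without control sheep 139.

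Of the BH3-only members in theca cells, all 4 had estimates below 0, while 50.0% of all genes tested had estimates above 0. BCL2L11 was at -0.26 ± 0.39 (SE) on the log2 scale and at -0.61 ± 0.26 without sheep 209 (unadjusted p = 0.0398, adjusted p = 0.400 by limma). Among the prenatal T animals sheep 230 and 276 had less BCL2L11 than every theca control, and sheep 209 more. BBC3 was at -0.41 ± 0.33 and, without sheep 209, at -0.63 ± 0.28 (unadjusted p = 0.0448, adjusted p = 0.407). Its theca values were 76.2 to 108 in controls and 47.1, 38.9 and 67.1 in sheep 230, 276 and 315, with sheep 210 at 99.2 and sheep 209 at 129. BID was at -0.21 ± 0.15 and BAD at -0.36 ± 0.19, and without sheep 209 at -0.11 ± 0.12 and -0.22 ± 0.14. Without sheep 209, 3 of 10 members had an unadjusted p under 0.05 in theca cells, as did 12.1% of all 15304 genes, and 0 of 10 members and 0% of the genes passed the adjustment.

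In granulosa cells the BH3-only members did not share a sign. BCL2L11 was at 0.23 ± 0.49 (SE) on the log2 scale, and the 5 prenatal T values fell on both sides of the controls: sheep 209 and 315 above all of them, and sheep 230 and 276 below. BBC3 was at -0.17 ± 0.43, BID at -0.03 ± 0.14 and BAD at -0.09 ± 0.18. Without sheep 209 these 4 differences were -0.0058, -0.46, 0.05 and -0.06. Among the BH3-only members, prenatal T granulosa cells varied most in BCL2L11, with a coefficient of variation of 58.4% (64.4% without sheep 209) against 35.2% in controls.

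**Figure D4:**
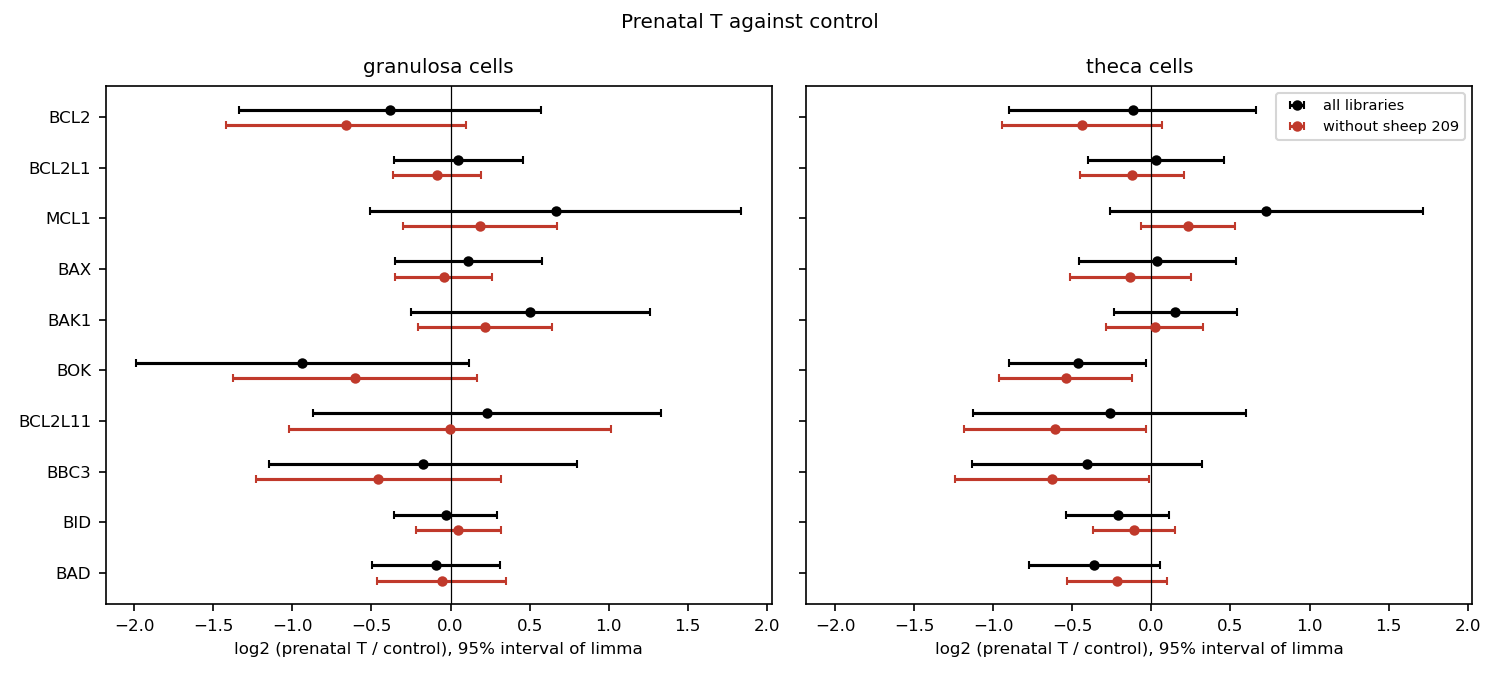
Log2 difference of prenatal T against control for each member in granulosa cells (left) and theca cells (right), with the 95% interval of limma, with all libraries (black) and without sheep 209 (red). With all libraries the interval excludes 0 for BOK in theca cells only, and no member passed after adjustment over all genes.

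Whether the 2 layers differed in their response to prenatal T was tested in the 9 animals with both layers. By limma, 0 of 10 members and 0% of 16169 genes passed, with 755 genes at an unadjusted p under 0.05, and 0 of those were members. By edgeR 0 genes and by DESeq2 20 genes passed, 0 of them members. The 4 BH3-only members all had estimates above 0, as did 46.7% of all genes tested. An estimate above 0 means a less negative or more positive difference in granulosa cells. The 4 ran from 0.17 ± 0.12 (SE) for BID to 0.43 ± 0.27 for BCL2L11 on the log2 scale. Without sheep 209 BCL2L11 was at 0.54 ± 0.26 (unadjusted p = 0.0653, adjusted p = 0.611). BOK was at -0.49 ± 0.44 and, without sheep 209, at -0.08 ± 0.23.

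The levels of a member in the layers of an animal were also set against each other, over the 8 animals other than sheep 209. Both libraries of an animal share its ovaries, so the relation is between layers and not between independent tissues. A positive relation was general: over 15918 genes the median of Pearson's r was 0.58 and 89.9% of genes had an r above 0, and for the 10 members the median was 0.68 and 10 of 10 were above 0. By an exact permutation test with Benjamini-Hochberg adjustment over all these genes, 7.79% of genes passed by r, and of the 10 members only BOK did so. For BOK, r was 0.84 (exact permutation p = 0.000818, adjusted p = 0.0331), and 15.1% of all genes had an r at least as high. Spearman's rho of BOK was 0.93 and did not pass (exact permutation p = 0.00223, adjusted p = 0.0627). Without the 2 animals farthest from the median of granulosa cells r was 0.89, and about the treatment means it was 0.77. For MCL1, r was 0.88 (exact permutation p = 0.00523, adjusted p = 0.0557) and rho 0.81 (adjusted p = 0.127 by the exact permutation test), with an r of 0.64 without the 2 farthest animals and 0.92 about the treatment means. For the other 8 members r was between 0.42 (BID) and 0.75 (BCL2L1) and did not pass, and for BBC3, BID and BAD r turned negative without the 2 farthest animals.

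Around these members, 104 other genes of the cell death pathway were listed, and 97 of them were in the table. Between layers 92 were tested and 56 passed, 35 higher and 21 lower in granulosa cells, which is 60.9% against 56.7% of all genes. Their median difference was 0.017 on the log2 scale, with 0.028 over all genes. The pathway as a list therefore passed at about the share of the background, and the groups within it are given by their counts.

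A list of other BCL2 family genes and genes of proteins that bind its members, such as BNIP2, had 12 genes tested. Of these, 3 were higher and 3 lower in granulosa cells. BNIP3, a hypoxia-induced member of mitochondria that also acts in mitophagy, had 1695 to 2394 normalized counts in control granulosa and 569 to 797 in control theca cells. It was higher in granulosa cells in 9 of 9 animals, by 1.39 ± 0.17 (SE) on the log2 scale (adjusted p = 5.02e-05 by limma). BNIP2 was lower in 9 of 9 animals, by -0.36 ± 0.073. BCL2L10, an anti-apoptotic member, was higher by 1.98 ± 0.65, at low counts of 0 to 53.4 in control granulosa and 1.08 to 6.35 in control theca cells. Its call was lost without sheep 224, 230, 244 or 246 (adjusted p = 0.0507 to 0.0560 by limma). Leaving out sheep 209, 6 oocyte markers summed to 21.1 to 555 in granulosa libraries and 12.5 to 37.0 in theca libraries. The part of oocyte RNA in the BCL2L10 difference was not tested.

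Of 14 genes of death receptors and their adaptors, 2 were higher and 7 lower in granulosa cells. Without sheep 209 the counts were 1 and 8 of 13. TNFRSF1A, the main TNF receptor, had 838 to 1097 normalized counts in control granulosa and 1527 to 1691 in control theca cells, a difference of -0.59 ± 0.070 (SE) on the log2 scale that was negative in 9 of 9 animals (adjusted p = 3.43e-05 by limma). RIPK1, the kinase recruited to that receptor, was lower by -0.34 ± 0.061, and the receptor TNFRSF25 by -1.28 ± 0.26. The adaptor TRAF2 was higher, by 0.36 ± 0.063. Median differences were -0.29 for this list and 0.028 for all genes.

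Of 16 mitochondrial factors and caspases, 7 were higher in granulosa cells and 0 lower, and without sheep 209 the counts were 6 and 2. AIFM1, a mitochondrial protein that takes part in caspase-independent death, was higher by 0.57 ± 0.086 (SE) on the log2 scale (adjusted p = 0.00018 by limma), and the outer membrane channels VDAC1 and VDAC2 by 0.43 ± 0.070 and 0.33 ± 0.058. AIFM1 had 674 to 783 normalized counts in control granulosa and 460.1 to 559 in control theca cells, and these 3 genes were higher in granulosa cells of 9 of 9 animals.

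Among 10 inhibitors of apoptosis, 4 were higher and 1 was lower, and without sheep 209 the counts were 4 and 2. BIRC5 (survivin), which also acts in mitosis, was higher in granulosa cells of 9 of 9 animals by 1.12 ± 0.13 (SE) on the log2 scale, and FAIM by 0.80 ± 0.14. XIAP, which blocks caspases directly, was the one called lower with all animals, by -0.33 ± 0.083, in 8 of 9 animals. Of 18 genes of the p53 and FOXO pathways, 8 were higher and 5 lower, and without sheep 209 the counts were 7 and 4 of 17. FOXO1, the granulosa cell FOXO factor, was higher by 1.47 ± 0.24 (1.74 ± 0.11 without sheep 209), while FOXO3 was lower by -0.50 ± 0.073 in 9 of 9 animals. Of 22 survival kinase genes, 11 were higher and 5 lower (11 and 4 without sheep 209). With all animals SGK1 was at 1.05 ± 0.14, AKT2 at 0.57 ± 0.081 and PIK3CB at 0.55 ± 0.078.

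**Figure D5:**
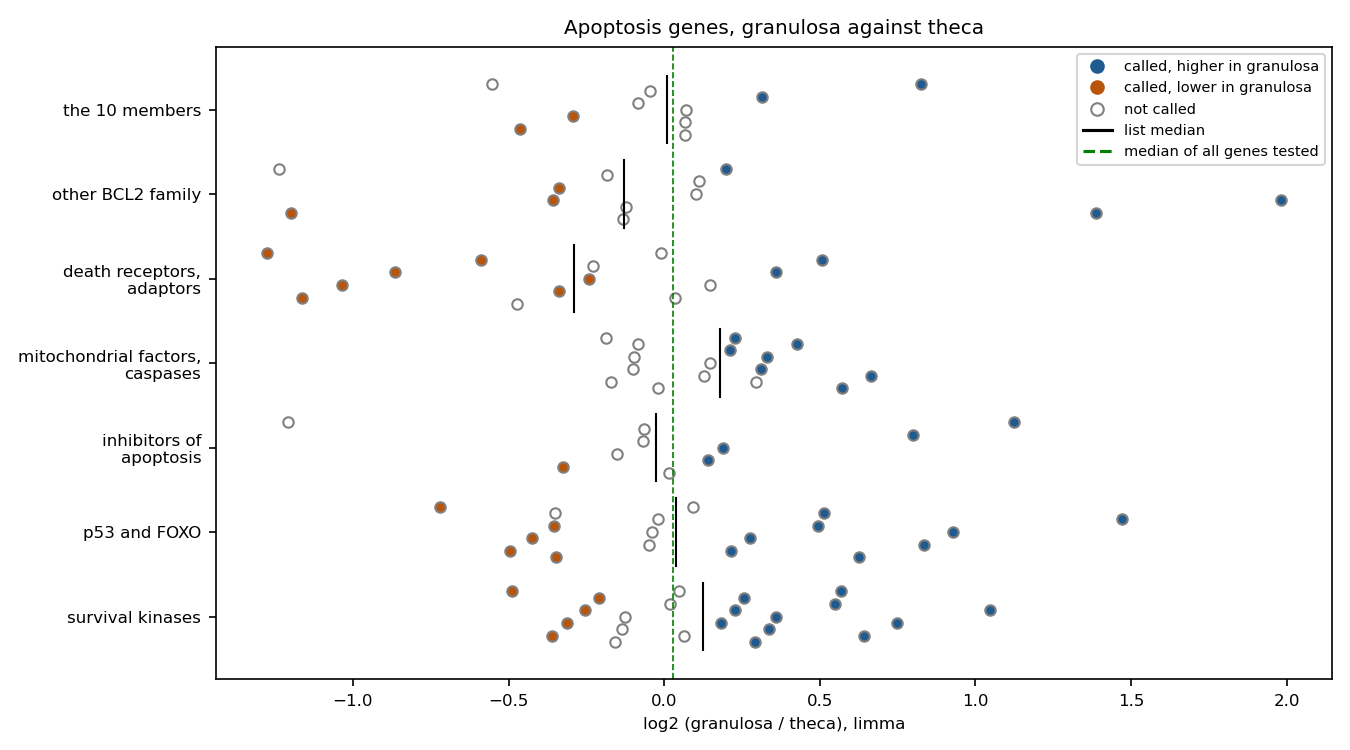
Log2 difference of granulosa against theca cells by limma for each tested gene of the 10 members and of 6 other lists, with 1 point per gene, filled where the adjusted p was under 0.05, a black line at the list median and a dashed green line at the median of all genes (0.028). Death receptor genes have a median of -0.29, and filled points lie on both sides of 0 in all lists except the mitochondrial factors and caspases, where the 7 filled points are above 0.

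For prenatal T against control, 0 of 88 pathway genes passed in granulosa cells and 0 of 89 in theca cells by limma. At an unadjusted p under 0.05 there were 1 and 7 of them, beside 4.22% and 7.69% of all genes tested. In theca cells the smallest p was that of XIAP, with 933 to 1135 normalized counts in controls and 1224 to 1588 in prenatal T animals. Its difference was 0.37 ± 0.11 (SE) on the log2 scale (unadjusted p = 0.00533, adjusted p = 0.644), and 0.36 ± 0.11 without sheep 209. DFFB, the nuclease that cuts DNA in apoptosis, had 206 to 258 in theca controls and 130.3 to 197 in prenatal T animals, a difference of -0.53 ± 0.16 (adjusted p = 0.644). The groups did not overlap for XIAP or DFFB, nor for 350 of the 15492 genes tested in this comparison (2.26%), of which 0% passed. In granulosa cells the smallest p was that of HTRA2, a mitochondrial protease, at -0.36 ± 0.15 (unadjusted p = 0.0412, adjusted p = 0.875).

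For the difference of the responses between layers, 0 of 92 pathway genes passed by limma. An unadjusted p under 0.05 was found for 7 of them, and for 4.67% of all genes tested. PIK3CA, a catalytic subunit of PI3 kinase, was at -0.52 ± 0.13 (SE) on the log2 scale, the p53 target SESN1 at -0.73 ± 0.19 and XIAP at -0.40 ± 0.12, each with an adjusted p of 0.96. Without sheep 209 they were at -0.50 ± 0.13, -0.76 ± 0.19 and -0.48 ± 0.10, and the adjusted p of XIAP was 0.454.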

How the data were processed

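RNA of microdissected granulosa and theca cells (sections of 14 µm) was depleted of ribosomal RNA and sequenced from stranded libraries, per the labels. The unit of the deposited table is a signal: read counts of genes, scaled by the authors with 1 size factor for each library. Per the submitters' processing notes, the tools were STAR 2.6.0c, Subread 1.6.1 with featureCounts, DESeq2, MultiQC 0.9 and FastQC 0.11.5, listed without their roles. The genome build and strand setting are not given in the sources used here. All values (100%, relative tolerance 1e-06) were whole multiples of 1 step per library, which gave recovered reads of 12.7 to 26.0 M per library. Of 20 labelled samples 19 were in the table, and 0 value columns lacked a sample.

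Genes reaching a value of 10 in 5 or more libraries of a comparison were tested by limma 3.58.1 (R 4.3.3, mean-variance trend, log2 of the value plus 1, two-sided), with Benjamini-Hochberg adjustment over all genes and a threshold of 0.05. A log2 difference on this scale understates the change of low genes. The comparison of layers and the difference of responses used the animal as a block and left out theca cells of sheep 139. The pairing comes from the sheep numbers in the labels, and across genes r between both layers' deviations ran from 0.42 to 0.80. In 9 of 9 animals the granulosa library correlated best with the theca library of the same animal, narrowly in sheep 230 (0.57 against 0.53). No library repeated another of its group (chi-square over degrees of freedom at least 25.9 in 36 pairs). The recovered reads were also tested by DESeq2 1.42.0 and by the quasi-likelihood test of edgeR 4.0.16, and the fits were tested on simulated data. The relation of levels between layers, a test chosen after seeing the data, used exact permutation over animals, two-sided, for genes past the same filter that varied in both layers. Other alternatives were a pseudocount of 5, no filter, TMM scaling, fits with or without the block, and each animal left out.

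The members and lists were chosen with earlier results of these data known. All 10 members are named. Of each of 6 pathway lists at most 4 passing genes of smallest p were named for a comparison or, where none passed, at most 2. A gene that this rule selects is not reported here. Of 104 pathway genes listed, 7 were not analysed here. Overlapping genes were read from the RefSeq table of assembly ARS-UI_Ramb_v3.0, without coordinates.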

Additional observations from a re-analysis of the deposited data

Results flagged for a closer look

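In 4 of 40 groups of 4 or 5 libraries tested, over the 10 members, the highest or lowest library lay farther from its nearest neighbour than Dixon's 95% critical value allows, measured on log2 of the normalized count plus 1, and chance gives about 1 in 20 groups. In control granulosa cells, sheep 268 had a BCL2 value of 95.7 normalized counts, below 207 to 219.7 in the other controls, and a BAX value of 273, above 246 to 250.1. In prenatal T theca cells, sheep 209 had an MCL1 value of 14709, above 2312 to 3403. In control theca cells, sheep 244 had a BAD value of 477, below 660.4 to 736 in the other controls. On the normalized counts themselves 5 groups exceeded the value: BAD did not, while MCL1 (14364 in sheep 209) and BCL2L1 in prenatal T granulosa cells did.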

How the results depend on the processing

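All alternatives named were run, and leaving out sheep 139 applied to theca cells only. For prenatal T, DESeq2 called 16 genes in the granulosa layer and 7 in the theca layer, and 20 for the difference of responses, and it called 32, 58 and 31 without sheep 209, an alternative chosen after seeing the data. With both layers in 1 fit and a replicate block, prenatal T called 1 gene in granulosa cells. Without the replicate block, the comparison of layers called 5148 genes and 0 members. With each animal left out it called 8331 to 10000 genes and 3 to 5 members, and the other comparisons called 0 genes. TMM scaling shifted libraries by at most 0.093 on the log2 scale. Signs turned only in differences that had not passed. For prenatal T in granulosa cells by edgeR and DESeq2 without sheep 209, BCL2L1 was at -0.069 and -0.062, BAX at -0.019 and -0.011 and BID at 0.070 and 0.077. In theca cells BCL2 was at 0.023 by edgeR and 0.057 by DESeq2, BCL2L1 at -0.0024 with TMM scaling, and by edgeR and DESeq2 without sheep 209 BCL2L1 was at -0.10 and -0.11 and BAX at -0.11 and -0.12. For the difference of responses BCL2L1 was at 0.023 with TMM scaling, 0.022 by edgeR, and 0.044 and 0.015 by edgeR and DESeq2 without sheep 209. With each animal left out, granulosa cells gave -0.085 to 0.12 for BCL2L1, -0.044 to 0.18 for BAX, -0.0058 to 0.51 for BCL2L11, -0.46 to 0.097 for BBC3, -0.10 to 0.049 for BID and -0.25 to 0.025 for BAD. Theca cells gave -0.44 to 0.033 for BCL2, -0.12 to 0.15 for BCL2L1 and -0.13 to 0.14 for BAX. Between layers BAK1 ran from -0.14 to 0.00051 and BBC3 from -0.16 to 0.030, and for the difference of responses BCL2L1 ran from -0.074 to 0.048. The cause of these turns was not tested. The fewest reads behind a member's value were 29 (BBC3), and the part of counting error in the spread between animals was not tested.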
